A study of Homo sapiens with 2 samples.

Results

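IGF2BP3 LACE-seq peaks were mapped along 6 long noncoding RNAs (lncRNAs), MALAT1, NEAT1, KCNQ1OT1, NORAD, OIP5-AS1 and TUG1. All peaks that overlapped the annotated span of one of these genes (GENCODE release 44, hg38) were taken, introns included. They were 18 of 21142 peaks in replicate 1 and 17 of 20799 peaks in replicate 2. The labels give 1 group of 2 samples of OE-19, an established line from adenocarcinoma of the esophagogastric junction (AEG), grown with no treatment or genetic change named. LACE-seq (linear amplification of cDNA ends and sequencing) crosslinks proteins to RNA with UV, recovers the RNA of 1 protein with an antibody, here IGF2BP3, and sequences the ends of the cDNA. The labels do not say whether the samples came from separate cultures, so differences between them may be technical. No library of an untreated input or of another antibody was analysed here, and with a single group no test between conditions was possible.

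IGF2BP3 is an oncofetal RNA-binding protein with RRM and KH domains that binds mRNAs in the cytoplasm and has been described as a reader of N6-methyladenosine (m6A), a mark placed within GGAC and related motifs. MALAT1 is an abundant, unspliced RNA of nuclear speckles, the bodies that hold splicing factors. NEAT1 is the architectural RNA of paraspeckles and is made as a short polyadenylated form and a long form that builds the body. KCNQ1OT1 is an imprinted RNA transcribed antisense to KCNQ1 that silences genes in cis. NORAD binds Pumilio proteins at repeated elements and is known to be largely cytoplasmic. TUG1 and OIP5-AS1, the latter known to bind the stability factor ELAVL1, are found in both compartments. The 6 RNAs therefore cannot all be called nuclear, and the peak lists carry no information on the compartment. TUG1 is annotated as protein-coding in this GENCODE release and the other 5 as lncRNA genes.

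In 8 places a peak of each replicate had its summit, the position of highest read pileup, within 100 bp of the other. The following sequences show 6 of them, at least 1 for each RNA with such a place. Each is a window of 201 nt of the hg38 reference around the midpoint of the 2 summits, written 5′ to 3′ on the gene strand with T for U, and positions (nt) count from the 5′ end of the annotated gene, with negative values upstream of it. Capitals mark GGAC. The other 2 places, both on MALAT1 with weaker folds, at nt 6871 to 7071 and nt 7739 to 7939, are not shown and hold 1 and 0 GGAC. The windows of NEAT1 near nt 13240 and of NORAD are shown because they hold no GGAC although the summits lie 2 and 1 bp apart.
MALAT1 nt 2724 to 2924 (chr11:65500363-65500563, plus strand): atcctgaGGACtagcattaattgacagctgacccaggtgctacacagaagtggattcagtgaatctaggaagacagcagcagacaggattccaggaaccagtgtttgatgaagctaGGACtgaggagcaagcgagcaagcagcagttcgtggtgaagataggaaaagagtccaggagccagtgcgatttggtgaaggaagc
NEAT1 nt 91 to 291 (chr11:65422864-65423064, plus strand): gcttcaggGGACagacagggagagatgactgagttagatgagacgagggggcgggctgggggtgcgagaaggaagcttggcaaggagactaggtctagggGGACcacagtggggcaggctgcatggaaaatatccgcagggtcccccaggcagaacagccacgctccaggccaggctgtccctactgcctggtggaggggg
NEAT1 nt 13141 to 13341 (chr11:65435914-65436114, plus strand): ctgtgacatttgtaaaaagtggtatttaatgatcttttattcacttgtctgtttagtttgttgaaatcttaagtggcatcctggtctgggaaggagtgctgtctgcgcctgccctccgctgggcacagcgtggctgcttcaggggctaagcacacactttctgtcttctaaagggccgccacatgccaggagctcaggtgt
NORAD nt 4269 to 4469 (chr20:36046550-36046750, minus strand): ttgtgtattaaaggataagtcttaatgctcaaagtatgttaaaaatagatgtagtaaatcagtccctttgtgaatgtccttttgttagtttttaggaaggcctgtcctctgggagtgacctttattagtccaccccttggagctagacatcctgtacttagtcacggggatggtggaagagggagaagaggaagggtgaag
TUG1 nt 8461 to 8661 (chr22:30977705-30977905, plus strand): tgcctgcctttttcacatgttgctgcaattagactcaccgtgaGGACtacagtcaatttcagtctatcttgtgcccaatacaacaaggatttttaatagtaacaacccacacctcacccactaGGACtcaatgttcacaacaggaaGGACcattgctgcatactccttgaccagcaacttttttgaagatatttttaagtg
TUG1 nt 9179 to 9379 (chr22:30978423-30978623, plus strand): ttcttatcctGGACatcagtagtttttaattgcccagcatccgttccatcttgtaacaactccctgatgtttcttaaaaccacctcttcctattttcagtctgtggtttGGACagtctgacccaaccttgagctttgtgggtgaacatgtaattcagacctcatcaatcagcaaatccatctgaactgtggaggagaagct

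The peaks were distributed unevenly over the 6 RNAs. MALAT1 had 4 peaks in each replicate, NEAT1 8 and 6, NORAD 3 and 2, and TUG1 3 and 4 in replicates 1 and 2. KCNQ1OT1 had none in replicate 1 and 1 in replicate 2, and OIP5-AS1 had none in either. Of the 5 genes with any peak, 4 had peaks in both lists. Over all lncRNA genes with an exonic peak in either list, 49.0% had one in both. In replicate 1 all 18 summits lay in an annotated exon. In replicate 2, 16 of 17 did, and the other summit lay just upstream of TUG1, at nt -7. No summit lay in an intron by this measure, but on 4 genes the outcome was fixed. Every base of MALAT1, NEAT1, NORAD and TUG1 is exonic in some annotated transcript. The KCNQ1OT1 summit lay in an exon of some transcript but in an intron of the one annotated as canonical.

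**Figure D1:**
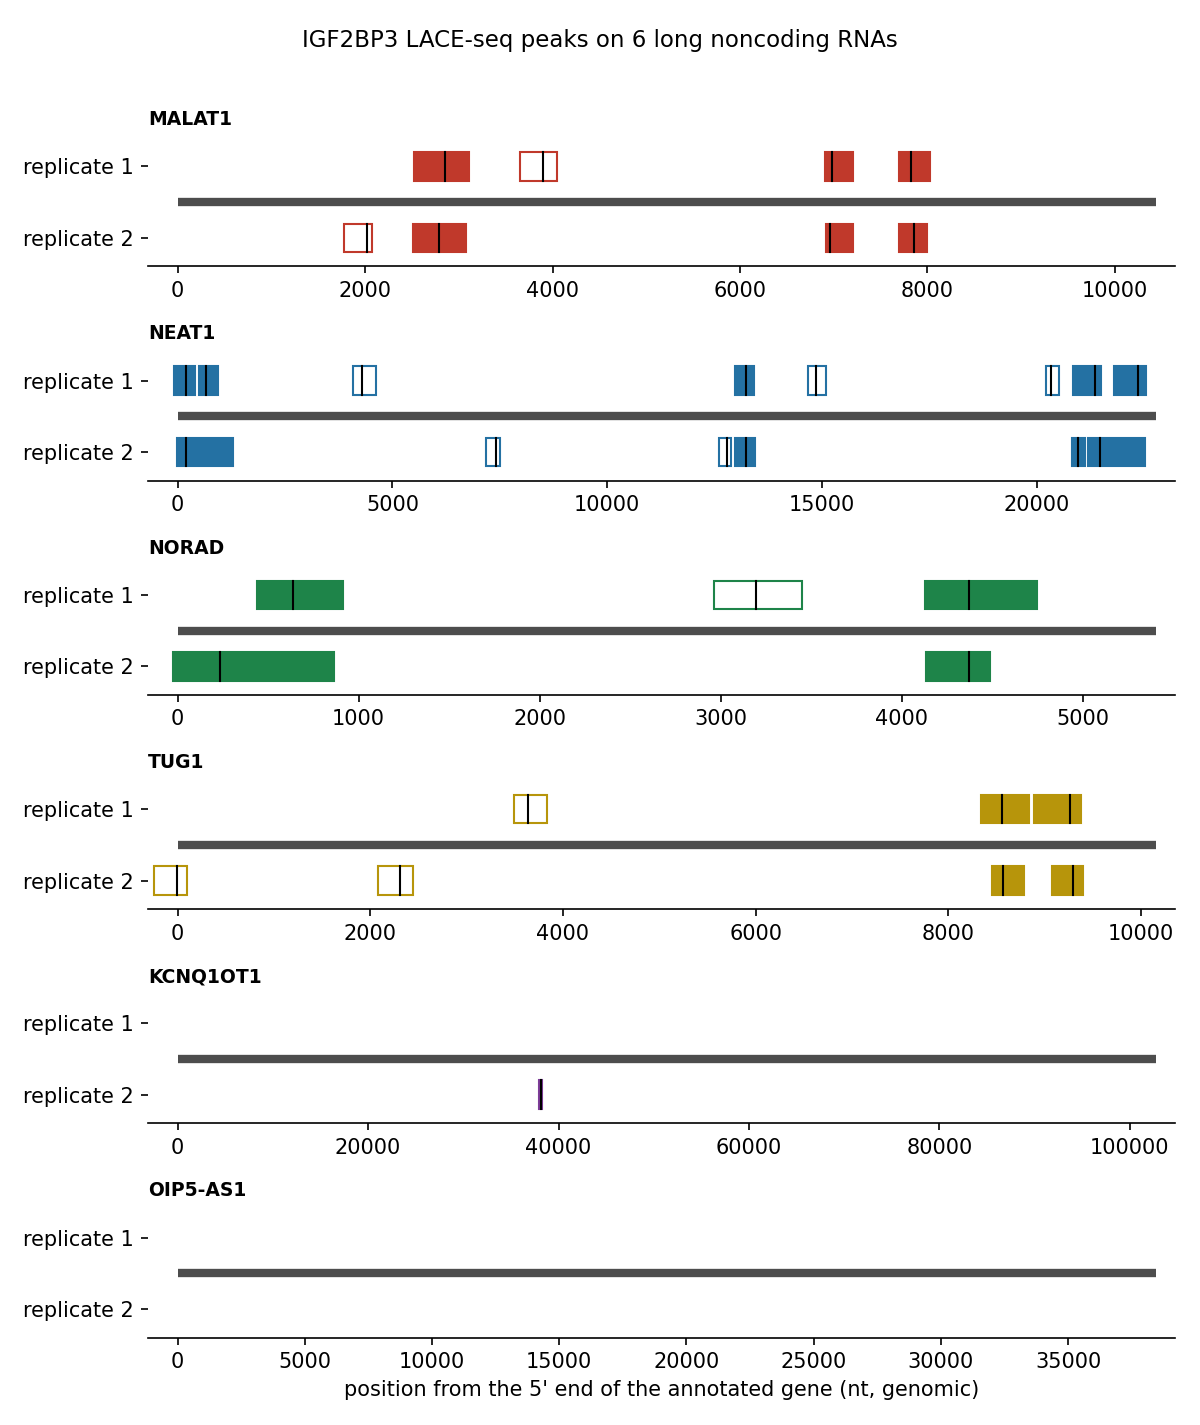
Peaks of both replicates along the 6 RNAs, in nt from the 5′ end of each annotated gene (dark bar). Boxes above the bar are replicate 1 and below it replicate 2, filled boxes overlap a peak of the other replicate, open boxes do not, and the black tick in a box is the summit. NEAT1, NORAD and TUG1 carried overlapping peaks near an end. NEAT1 also carried them at nt 12966 to 13433 and NORAD at nt 4128 to 4744. MALAT1 carried them at nt 2514 to 3111 and nt 6908 to 8024, and OIP5-AS1 had none.

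A peak was called shared where it had at least 1 bp in common with a peak of the other list. This held for 12 of the 18 peaks of replicate 1 (66.7%, Wilson 95% interval 43.7 to 83.7) and for 11 of the 17 of replicate 2 (64.7%, interval 41.3 to 82.7). The mean was 65.7% ± 1.39 (SD, n = 2). Both shares count the same overlaps, seen from either list, so this SD does not measure variation between replicates. Over the whole lists the shares were 60.1% and 61.2%, inside both intervals. The overlap share of all peaks rose with read pileup, however, and the peaks on these RNAs had higher pileups than most. With so few peaks and no matching for pileup, this comparison cannot show whether recurrence differed. Shares at similar background or pileup are given below. Peaks on exons of all other lncRNA genes overlapped in 69.4% of 1278 cases in replicate 1 and 59.9% of 1557 in replicate 2. The intervals cover counting error only, and peaks on 1 RNA are not independent.

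Most peaks on these RNAs differed from the list median by a high read pileup on a high local background, as did other peaks described below. The peak caller's fold enrichment is the pileup at the summit plus 1, divided by the local expected pileup plus 1, and both parts were recovered from the deposited fold and p-value of every peak. The median summit pileup was 91.5 reads in replicate 1 and 75 in replicate 2, against 22 reads over all peaks in both lists. The median local background was 24.6 and 18.6 reads, against 2.05 and 1.79. The median fold was therefore low, 3.52 and 4.86, against 6.89 and 7.13. The lists do not show which reads the caller took for the local background, so it cannot be read as nonspecific signal. In replicate 1, 17 of 18 peaks lay below the 25th percentile of fold and above the 75th percentile of pileup, where 10.3% of all peaks lay. In replicate 2 the count was 12 of 17, against 9.52% of all peaks. Among peaks on exons of other lncRNA genes it was 12.1% and 8.80%. A local background above the 95th percentile of the list was seen for 16 of 18 and 12 of 17 peaks. The exceptions were 2 TUG1 peaks in replicate 1, and all 4 TUG1 peaks and the KCNQ1OT1 peak in replicate 2.

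**Figure D2:**
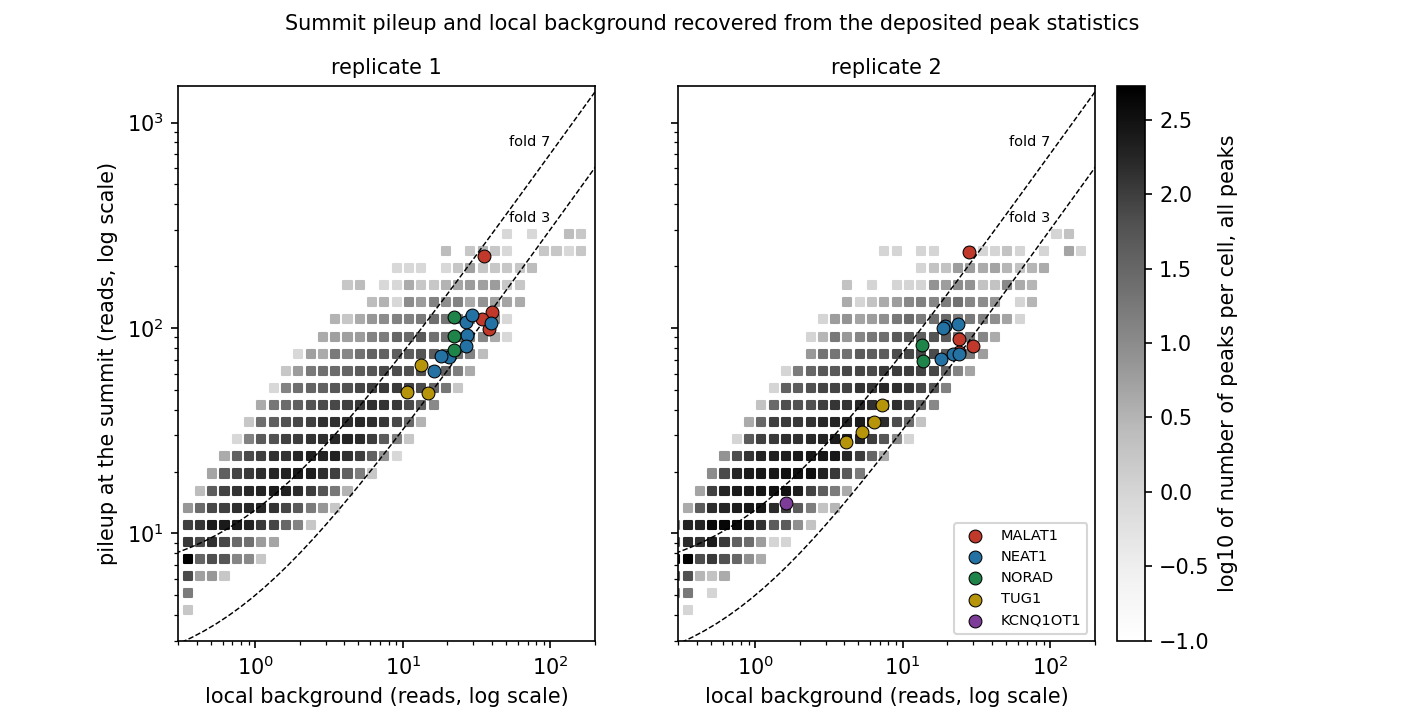
Summit pileup against local background (reads, both axes logarithmic) in each replicate. Grey cells hold all peaks, darker where more peaks fall, coloured points are the peaks on the named RNAs, and dashed lines are constant folds of 3 and 7. Most coloured points lie at the upper right, between or near the lines, and the MALAT1 peak at 223 and 234 reads lies above its other peaks.

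The other peaks of each list with a background above the 95th percentile had similar levels. In replicate 1 these 1042 peaks had a median fold of 3.78, a median pileup of 80 reads and an overlap share of 77.0% (interval 74.3 to 79.4), where 10 of the 16 peaks on the 6 RNAs overlapped. In replicate 2, 1028 such peaks had a median fold of 3.98, a median pileup of 83 reads and a share of 75.8% (interval 73.1 to 78.3), where 9 of 12 overlapped. At 75 reads or more, 92.4% and 90.8% of all peaks overlapped, against 8 of 12 and 8 of 10 on the 6 RNAs. No test of these differences was made.

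The largest pileup of either list, 298 and 306 reads, was on the mitochondrial chromosome, and 1 peak in each list exceeded the smallest peak width of 293 and 294 bp. The MALAT1 maximum reached 74.8% and 76.5% of the largest pileup. Whether reads at 1 position were counted once is not given in the sources used here, and its part in the pileups was not tested.

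MALAT1 (ENSG00000251562.11, chr11:65497640-65508073, plus strand) is 10434 nt long, and the exons of its 66 annotated transcripts together cover every base. Its leading peak lay at nt 2519 to 3111 in replicate 1 and nt 2514 to 3078 in replicate 2. The fold was 6.13 and 8.10, or 7.11 ± 1.40 (SD, n = 2). The pileup was 223 and 234 reads on local backgrounds of 35.6 and 28.0. It ranked 24th and 11th by pileup, and 66th and 17th by −log10 q, which was 93.1 and 122.5. This was the largest fold, pileup and −log10 q of any peak on the 6 RNAs in both replicates, and the summits were 63 bp apart, inside the first sequence shown.

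The next pair on MALAT1 lay at nt 6908 to 7204 and nt 6913 to 7210, with folds of 2.52 and 2.70 and pileups of 99 and 82 reads. The last pair lay at nt 7698 to 8024 and nt 7692 to 7991, with folds of 3.13 and 3.07 and pileups of 110 and 76 reads. Both were therefore weak by fold and tall by pileup, with summits 30 and 28 bp apart. Replicate 1 alone had a peak at nt 3651 to 4052 (fold 2.91, 119 reads) and replicate 2 alone one at nt 1775 to 2071 (fold 3.54, 88 reads). The stretch from nt 4053 to 6907 and the last 2410 nt, which hold the stabilizing 3′ terminus, had no peak in either list. Several annotated transcripts end at nt 8830, inside this last stretch, and only the 10434-nt transcript runs to its end. Peaks covered 15.5% and 14.0% of MALAT1, and 59.3% of the bases covered in either replicate were covered in both, the highest share of the 4 RNAs with overlapping peaks. TALAM1, an lncRNA annotated on the opposite strand, lies under every MALAT1 peak. The deposited peaks have no strand, so reads from the 2 genes cannot be told apart.

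NEAT1 (ENSG00000245532.11, chr11:65422774-65445540, plus strand) is 22767 nt long. Its overlapping peaks lay at both ends and near nt 13240, and 5 further peaks were called in 1 replicate alone. At the 5′ end, replicate 1 had 2 peaks, from nt -94 to nt 404 and from nt 487 to 942, and replicate 2 had 1 peak from nt -22 to nt 1290. The first summits were 4 bp apart, at nt 193 and 189. Their folds were 3.87 and 5.08 and their pileups 107 and 102 reads. The second peak of replicate 1 had a fold of 3.82, and its 116 reads and −log10 q of 29.3 were the largest on NEAT1 in that replicate. The largest −log10 q of replicate 2, 35.9, was at its 5′ peak. The same segment was thus called as 2 peaks in one list and 1 in the other.

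The internal NEAT1 peak lay at nt 12988 to 13421 and nt 12966 to 13433. Its fold was 3.28 and 5.14, the latter the largest on NEAT1 in replicate 2, and its pileup 92 and 100 reads. The summits differed by 2 bp. Pileup was nearly equal in the replicates while the background was 27.4 and 18.6 reads. At the 3′ end, replicate 1 had peaks at nt 20842 to 21493 (fold 3.87, 73 reads) and nt 21798 to 22545 (fold 3.64, 62 reads), and replicate 2 at nt 20826 to 21123 (fold 3.02, 75 reads) and nt 21202 to 22526 (fold 4.32, 105 reads). These covered much the same stretch, but the nearest summits of overlapping peaks were 111 bp apart. The peaks of replicate 1 alone were at nt 4082 to 4627, 14684 to 15095 and 20215 to 20518, and those of replicate 2 alone at nt 7188 to 7493 and 12597 to 12892.

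The short form of NEAT1 ends at nt 3740. In replicate 1, 6 of 8 peaks, and in replicate 2, 5 of 6, lay beyond this end, in the part that only the long form holds. That part is 19027 of the 22767 nt, so the counts show no preference for it. The 5′ peaks lie in the part common to both forms. The longest stretch with no peak in either list ran from nt 15096 to 20214. Coverage was 17.4% and 17.5% of the RNA, almost the same amount in both replicates, yet only 48.6% of the bases covered in either were covered in both.

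NORAD (ENSG00000260032.2, chr20:36045618-36051018, minus strand) is a single exon of 5401 nt. One pair lay at nt 4128 to 4744 and nt 4131 to 4487, with folds of 4.91 and 4.74 (4.83 ± 0.12, SD, n = 2), pileups of 113 and 69 reads and summits 1 bp apart. In replicate 1 it had the largest fold and −log10 q of the gene. The other pair, near the 5′ end, lay at nt 436 to 911 and from nt -25 to nt 863, with folds of 3.99 and 5.80, pileups of 91 and 83 reads and summits 402 bp apart. It had the largest fold and −log10 q of the gene in replicate 2. The order of the 2 pairs thus differed between replicates. Replicate 1 alone had a peak at nt 2961 to 3450 (fold 3.40, 78 reads). Peaks covered 29.3% and 22.6% of NORAD, the largest shares of the 6 RNAs, and 38.9% of the bases covered in either were covered in both.

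NORAD is known for its repeated Pumilio elements. TGTANATA, searched on the gene strand, occurred 15 times, from nt 819 to 4657. In replicate 1, 5 of the 15 lay in a peak, or 3.16 per kb inside peaks and 2.62 outside. In replicate 2, 1 of 15 did, or 0.820 per kb inside and 3.35 outside. The replicates thus differed in which side had more. Outside both sets lay 10 elements, among them all 9 between nt 1198 and 2706. None of the 201-nt windows around the 5 summits on NORAD held TGTANATA, whereas 43.1% of all windows of that length along it did. The summit windows of the other RNAs held none either, where 0% of all windows along MALAT1, 4.37% along NEAT1 and 5.85% along TUG1 did. Among summit windows of all peaks in genes of 1 strand, 1.76% and 0.889% held it in replicates 1 and 2. The counts are small, and GC content differed too, 44.5% inside against 40.6% outside the peaks of replicate 1 and 59.4% against 36.6% in replicate 2. The part of GC content in this placement was not tested.

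**Figure D3:**
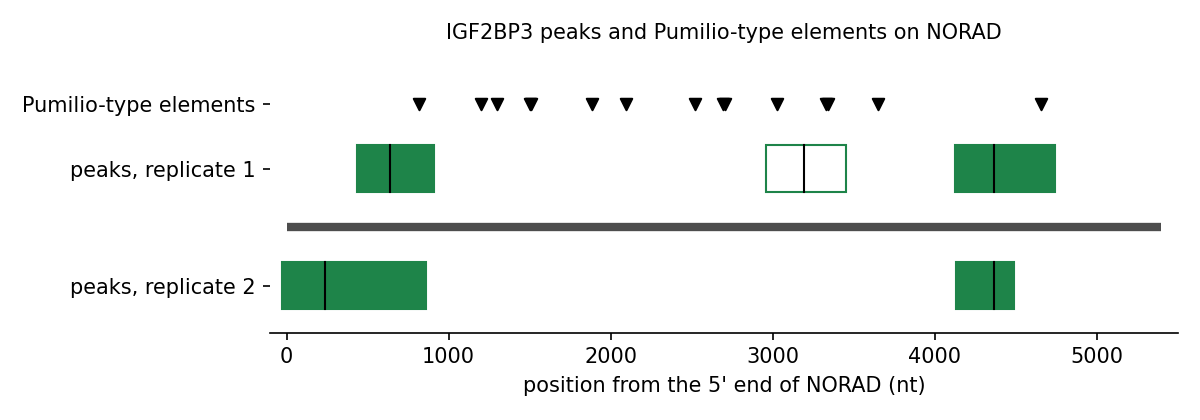
Pumilio-type elements (triangles) and peaks of both replicates (boxes, filled where the replicates overlap, with the summit as a tick) along NORAD, in nt from its 5′ end. The 9 elements between nt 1198 and 2706 lie in no peak, and 5 elements in replicate 1 and 1 in replicate 2 lie inside a peak.

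NORAD also has near-identical copies elsewhere in the genome. Of 31-nt words taken every 10 nt along it, 36.4% occurred once in hg38, against 97.8% for MALAT1, 95.4% for NEAT1 and 100% for TUG1. The summit word of the pair at nt 4368 and 4369 occurred 2 times. The locus sharing most words, on chromosome 12 within OVCH1-AS1, had 1 peak of 7 reads in replicate 1 and none in replicate 2. A second, on chromosome 5, had 2 peaks in replicate 1 and 1 in replicate 2, with up to 57 and 38 reads. How the authors' alignment divided such reads is not known, so NORAD values are uncertain.

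TUG1 (ENSG00000253352.10, chr22:30969245-30979395, plus strand) is 10151 nt long with all bases exonic in some transcript. Both overlapping pairs lay near the 3′ end. The first was at nt 8339 to 8832 and nt 8452 to 8784, with folds of 4.71 and 5.06 (4.89 ± 0.25, SD, n = 2), pileups of 66 and 31 reads and summits 9 bp apart. The second was at nt 8894 to 9379 and nt 9081 to 9392, with folds of 4.28 and 5.67, pileups of 49 and 28 reads and summits 23 bp apart. The median pileup on TUG1 was 49 and 33 reads, against 114.5 and 85 on MALAT1, 87 and 87.5 on NEAT1 and 91 and 76 on NORAD. The largest fold on TUG1 was at the first pair in replicate 1 and at the second in replicate 2. Replicate 1 alone had a peak at nt 3489 to 3831 (fold 3.08, 48 reads). Replicate 2 alone had a peak across the gene start, from nt -249 to nt 97 (fold 4.86, 35 reads), and one at nt 2076 to 2443 (fold 5.20, 42 reads), which had the largest −log10 q of TUG1 in that replicate, 15.6. The first pair also lies over an exon of ENSG00000269972, an lncRNA on the opposite strand, and cannot be assigned between them. Peaks covered 13.0% and 10.9% of TUG1, and 35.1% of the bases covered in either replicate were covered in both.

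KCNQ1OT1 (ENSG00000269821.2, chr11:2597308-2700003, minus strand) spans 102696 nt and had a single weak peak, at chr11:2661766-2662067 in replicate 2. Its fold was 5.73, its −log10 q 6.89, its pileup 14 reads and its background 1.62 reads, so it was the only one of the 35 peaks with a pileup below the list median. It also lies over an exon of KCNQ1 on the opposite strand, and the 2 genes cannot be told apart there. KCNQ1 had further exonic peaks in both replicates, whereas KCNQ1OT1 had no other peak, and this peak was counted for both genes. The summit of replicate 1 nearest to this peak was 90015 bp away. OIP5-AS1 (ENSG00000247556.7, chr15:41283958-41322392, plus strand), with 22370 exonic nt, had no peak. A peak list holds only regions past the caller's threshold, so this does not show that these RNAs were unbound. Of the 31-nt words, 90.7% of KCNQ1OT1 and 69.0% of OIP5-AS1 occurred once in the genome, and expression of the RNAs in these cells was not measured in the files.

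Over the 13 overlapping pairs on MALAT1, NEAT1, NORAD and TUG1, which include peaks that met 2 peaks of the other list, fold was higher in replicate 2 in 10 pairs, with a median ratio of 1.19 (range 0.780 to 1.57). Pileup was higher in replicate 2 in 5 pairs, with a median ratio of 0.912 (range 0.470 to 1.69). The local background was higher in replicate 2 in 3 pairs, with a median ratio of 0.698 (range 0.385 to 1.44). The whole lists leaned the same way, with a median fold of 6.89 and 7.13 and a median background of 2.05 and 1.79 reads in replicates 1 and 2. The median distance between the summits of a pair was 30 bp, and 8 of 13 pairs had summits within 100 bp. Such counts were not made over all overlapping peaks of the lists, so nothing particular to these RNAs follows from them.

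**Figure D4:**
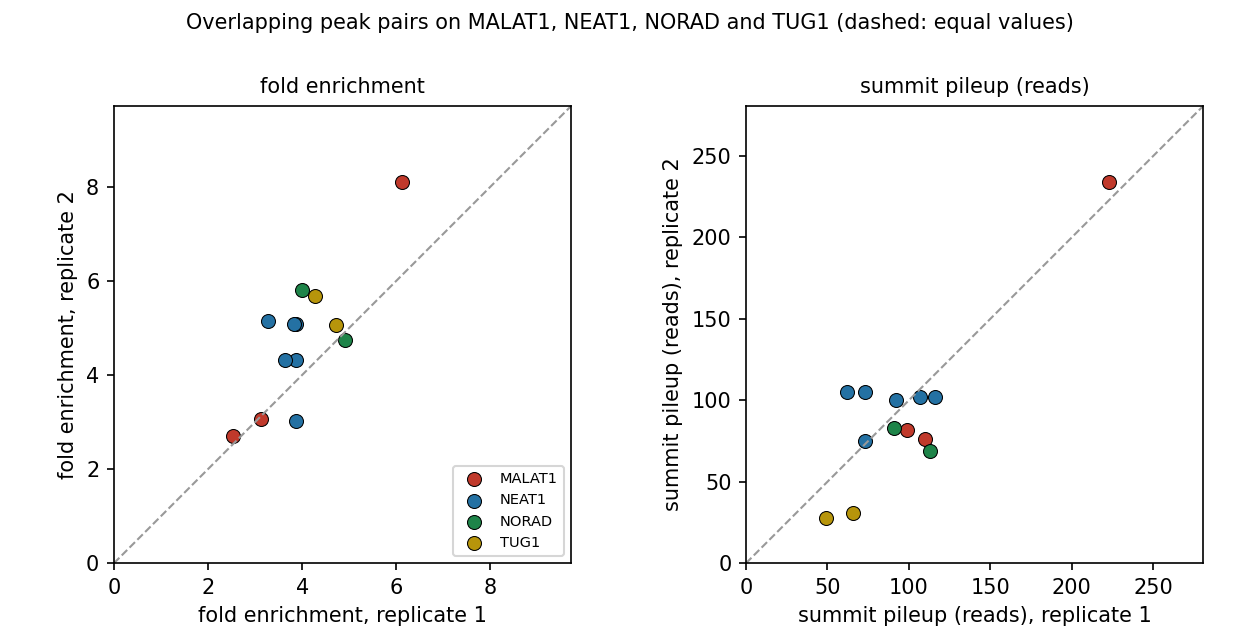
Fold enrichment (left) and summit pileup in reads (right) of the 13 overlapping peak pairs, replicate 1 on the horizontal and replicate 2 on the vertical axis, 1 point a pair, with equal values on the dashed line. By fold, 10 points lie above the line, and by pileup 5 do, and the MALAT1 peak at 223 and 234 reads stands alone at the upper right.

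Because m6A is placed within GGAC, its density was compared inside and outside the peaks of the 4 RNAs with overlapping peaks. In replicate 1 there were 43 GGAC inside peaks and 89 outside, or 5.07 and 2.21 per kb (ratio 2.29). In replicate 2 there were 42 and 90, or 5.40 and 2.20 per kb (ratio 2.46). The density was higher inside peaks on each of the 4 RNAs in both replicates. It was 8.31 against 2.27 per kb on TUG1 in replicate 1, and 4.32 against 2.04 on MALAT1, 4.30 against 2.18 on NEAT1 and 5.05 against 2.62 on NORAD. In replicate 2 the TUG1 values were 9.01 and 2.32. The 2 TUG1 windows shown above hold 3 and 2 GGAC. With all 6 RNAs, which adds the uncovered bases of KCNQ1OT1 and OIP5-AS1, the ratios were 1.92 and 2.02.

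The same direction was found for the 11 other arrangements of the letters of GGAC. In replicate 1 their ratios ran from 1.10 (GGCA) to 2.60 (GCGA), and GGAC ranked 4th of 12. In replicate 2 they ran from 1.71 (GGCA) to 4.02 (ACGG), and GGAC ranked 6th. GGAC thus lay within the range of words of its own base composition. TGGAC had ratios of 2.30 and 2.31. DRACH, the broad m6A motif, which overlaps GGAC and in which D stands for any base but C, R for a purine and H for any base but G, had 1.08 and 1.01. CACA had 1.62 and 1.12, AAAAA 0.349 and 0.439 and TTTTT 0.554 and 0.470. GC content was higher inside peaks on each RNA. Beside the values of NORAD above, it was 53.3% against 42.1% on NEAT1 in replicate 1 and 55.7% against 41.6% in replicate 2. On MALAT1 it was 42.3% against 42.0% in replicate 2. The part of base composition in the GGAC ratio was not tested. At the summits themselves, 9 of 18 windows of 201 nt in replicate 1 and 9 of 17 in replicate 2 held GGAC, against 47.9% and 53.0% of summit windows of all peaks in genes of 1 strand.

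Among the lncRNA genes, NEAT1 ranked 2nd by the number of exonic peaks in the list where a gene had fewer. MALAT1 was 1 of 6 genes at rank 3, and NORAD 1 of 67 at rank 37. The 5 other lncRNA genes with the most peaks were ENSG00000285628 (7 and 9 peaks), HERC2P3 (4 and 5), LINC02331 (5 and 4), GTF2IP1 (6 and 4) and ENSG00000291073 (6 and 4). The counts are not scaled by length. Exonic length was 22767 nt for NEAT1 and 10434 nt for MALAT1, against 2312 to 9281 nt for these 5 genes. Their largest pileups ran from 20 to 114 reads. Ties in the number of peaks were settled by the larger mean fold, so the folds of these genes were not set against those of NEAT1 and MALAT1.

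The mRNAs of proteins known to work with these RNAs were counted as well. Over all protein-coding genes, 31.6% had an exonic peak in both replicates. Among 14 paraspeckle protein genes 13 did, namely NONO, SFPQ, PSPC1, RBM14, TARDBP, HNRNPK, HNRNPH3, DAZAP1, SMARCA4, CPSF6, NUDT21, EWSR1 and TAF15. Both speckle scaffold genes, SON and SRRM2, had peaks in both, with up to 87 and 102 reads on SRRM2. So did METTL16 and ELAC2, whose products act on MALAT1, although the METTL16 peaks did not overlap each other. Among the genes of NORAD-binding proteins, PUM2 had 9 and 10 peaks, KHDRBS1 3 and 2 and RBMX 3 and 2. ELAVL1 had 5 and 2 peaks. Of the Polycomb repressive complex 2 genes, EZH2 and SUZ12 had peaks in both and EED in neither, and the EZH2 peaks, like those of METTL16, did not overlap each other. In the imprinted domain of KCNQ1OT1, KCNQ1, CDKN1C and PHLDA2 had peaks in both, and SLC22A18 in replicate 2 alone. These genes are expressed to differing degrees, and expression was not in the files. Their lists were also chosen with earlier results of these data known, so no enrichment follows from the counts.

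Of 20 other lncRNAs on the lists, 8 had peaks in both replicates, against 4.28% of all annotated lncRNA genes. Of lncRNA genes with an exonic peak in either list, 49.0% had one in both. The list was chosen with earlier results of these data known, and expression was not in the files, so no enrichment follows. The 8 were GAS5, SNHG1, H19, DANCR, UCA1, ZFAS1, LINC00511 and DLEU2. Another 6 had a peak in 1 list and 6 in none. GAS5, a host of small nucleolar RNAs, had 4 and 3 peaks with up to 84 and 105 reads, and SNHG1, also such a host, 3 and 3 with up to 78 and 88 reads. Their largest folds were 5.51 and 6.13 on GAS5 and 6.21 and 6.04 on SNHG1. The leading MALAT1 peak had 6.13 and 8.10, and the other MALAT1 peaks had 2.52 to 3.54.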

How the data were processed

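IGF2BP3 LACE-seq was analysed from 2 peak lists of OE-19 cells, called by the authors for each replicate on its own. The submitters' processing notes name fastp, HISAT2 and MACS2 with hg38, whereas the study's methods name Bowtie and Piranha. The lists have the 10-column narrowPeak layout that MACS2 writes. The deposited values used were the fold enrichment (a ratio), the −log10 p-value and −log10 q-value and a score that is 10 times the latter, and strand is undefined. Read depth is not given in the sources used here. The summit pileup k and local background b were recovered for all peaks from fold = (k + 1)/(b + 1) and the Poisson p-value, within 0.002 of the deposited −log10 p-value. In simulated data the recovery was right for 99.7% of 1454 peaks.

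Peaks were assigned by overlap of at least 1 bp with gene spans of GENCODE release 44 (Python 3.11.15, pandas 2.3.3, scipy 1.17.1). No peak ran past a chromosome end of the hg38 sequence. Shares carry Wilson 95% intervals, which cover counting error only. Peaks are not replicates, and no p-value was computed. The members, gene lists and motifs were chosen with earlier results of these data known. Named were the 6 lncRNAs, listed genes with peaks in both replicates, and the 5 other lncRNA genes with the most exonic peaks in the list where they had fewer, ties going to the larger mean fold. The listed genes EED, with no peak, and SLC22A18, with peaks in replicate 2 alone, were named too. So were genes that overlap a peak of the 6 lncRNAs or share sequence with one of them. The alternatives tried concerned the overlap rule, stricter peak sets, exon and gene membership, the ranking measure, the motif region and leaving out a gene or a replicate. Single values of 2 listed genes are not reported here.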

Additional observations from a re-analysis of the deposited data

How the results depend on the processing

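There is 1 group, so no paired analysis was possible because no groups are compared. Of 63 recalculations of 8 summary values, 39 stayed within the spread between replicates, within the value's interval or, for counts and distances, within 1.5 times. These 39 do not all measure stability. For shares, percentiles and the GGAC ratio, leaving out 1 of 2 replicates always moves the mean by less than the SD between them. Those recalculations could not count as moved. For the overlap share, the spread is only that between the 2 directions of 1 comparison. A −log10 q of at least 5 removed no peak on the 6 RNAs, so its recalculations repeat the reported values. The overlap share of 65.7% became 45.8% when 50% of both peaks had to overlap, 40.0% with summits within 50 bp, 59.8% among the 10000 peaks of each list with the largest −log10 q, 67.7% with summits in an exon or without KCNQ1OT1, and 63.1% without peaks on an exon of another gene. The last setting removed all MALAT1 peaks and left 9.5 of 17.5 peaks on average. It also removed NEAT1 and TUG1 peaks because of misc_RNA or miRNA entries annotated on the same strand under them. At the 5′ end of NEAT1 it removed the peak of replicate 2 but kept the first peak of replicate 1. Its values therefore depend partly on such entries. Leaving out NEAT1 left 10.5 peaks. The covered share of exonic bases, 5.06%, became 4.54% with the 10000 peaks, 2.62% without peaks on another gene's exon, 5.58% on the longest transcripts, 3.06% without NEAT1, 11.4% without KCNQ1OT1 and, in a setting chosen after seeing the data, 16.7% without KCNQ1OT1 and OIP5-AS1. The share of covered bases common to both replicates, 45.3%, became 39.8%, 26.6%, 42.3% and 46.5% with the 10000 peaks, without peaks on another gene's exon, without NEAT1 and without KCNQ1OT1. The median fold percentile, 7.43, became 69.1 when peaks were ranked by −log10 q and 95.9 when ranked by pileup. The GGAC ratio over all 6 RNAs, 1.97, became 1.63 without peaks on another gene's exon, 2.09 without NEAT1, 2.63 without KCNQ1OT1 and, again chosen after seeing the data, 2.38 without both RNAs that lack a shared peak. It exceeded 1 in every setting tried. The cause of these shifts was not tested, beyond the peaks, bases or genes that each setting leaves out. Leaving out a replicate gave 3.27 to 11.6 for the fold percentile, 4.93% to 5.18% for the covered share, 17 to 18 peaks, 94.1% to 100% of summits in an exon, and 1.92 to 2.02 for the GGAC ratio.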
